A study of Mus musculus with 9 samples.

Results

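The genes described here are the TGF-beta ligands, their receptors and the latent TGF-beta binding proteins, taken by symbol from the gene table: the ligands Tgfb1, Tgfb2 and Tgfb3, the receptors Tgfbr1, Tgfbr2 and Tgfbr3, and the binding proteins Ltbp1, Ltbp2, Ltbp3 and Ltbp4. They are 10 of the 54532 genes in the table, and all 10 passed the filter on low counts that left 14004 genes for testing. The rule takes the genes by name and uses no measured value, although the set was proposed with earlier results of these data known.

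The libraries were made from poly-A mRNA of ST2 cells, a mouse bone marrow stromal line that can be driven towards osteoblasts and that the labels describe as wild-type mesenchymal stem cells from bone. Cells of 3 groups, with 3 libraries each, were collected at 72 h: vehicle (Veh), recombinant human Wnt3a at 50 ng/ml (rhWnt3a), and rhWnt3a combined with OSMI (rhWnt3aOSMI), an inhibitor of O-GlcNAc transferase, the enzyme that attaches O-GlcNAc to proteins. The treatment label of the third group names OSMI at 20 µM alone, and so do the study's methods, whereas its title and the study's account of the experiment give the combination, and the title was followed. Read by the titles, no group received OSMI alone and an effect of OSMI can be seen only on top of rhWnt3a, and if the group had OSMI without rhWnt3a, its comparison with rhWnt3a would differ in both agents. All libraries came from 1 cell line, and the study calls them biological replicates without saying how the cultures were kept apart, so the p-values measure the spread between these libraries of the line. In bulk RNA, fewer cells that express a gene and less of its RNA per cell cannot be told apart.

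TGF-beta ligands are secreted as latent complexes in which the propeptide encloses the growth factor and is commonly tethered by a latent TGF-beta binding protein to fibrillin and fibronectin in the matrix. Integrins, thrombospondin and proteases can free the growth factor, which binds the type II receptor Tgfbr2 and thereby brings in and activates the type I receptor Tgfbr1, and Tgfbr1 then phosphorylates Smad2 and Smad3. Bone matrix is a large store of latent TGF-beta, and the pathway is known for drawing bone progenitors to sites of resorption and for holding back their last steps of differentiation.

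Total counts ran from 16135898 to 17583945 per library, so that 3 counts, the limit set by a count of 0, stood for 0.170 to 0.191 CPM (counts scaled to library size). Within each group 1 library stood apart from the other two, namely Veh replicate 3, rhWnt3a replicate 2 and rhWnt3aOSMI replicate 3 (mean squared log2 difference to the others 0.392 to 0.439, against 0.111 to 0.119 between those). Veh replicate 3 and rhWnt3a replicate 2 each held the lowest level of 9 of the 10 members in their group, and rhWnt3aOSMI replicate 3 held the highest level of 8 of the 10, so that these libraries set much of the spread given below. Of 12 stromal markers 10 were tested, whereas Thy1 and Lepr had at most 4 counts in any library. The summed CPM of the stromal markers was 20798 to 27402 in Veh, 17341 to 20444 with rhWnt3a and 8873 to 17290 with rhWnt3aOSMI. Most of this sum came from the collagens Col1a1, Col1a2 and Col3a1. By the thresholds given below, 1 stromal marker was called higher and 2 lower with rhWnt3a. Against vehicle, 1 was higher and 4 lower under rhWnt3aOSMI. Prrx1 had 2129 to 2567 counts in Veh, 4244 to 4406 with rhWnt3a and 3731 to 4509 with rhWnt3aOSMI. Cxcl12 went the other way, with 20770 to 22899 counts in Veh, 4319 to 4659 with rhWnt3a and 5839 to 6645 with rhWnt3aOSMI. So did Vcam1, with 1634 to 2246, 949 to 1100 and 448 to 624 counts. The summed levels of markers of neighbouring lineages also moved with the treatment. Smooth muscle markers, of which 4 of 5 were tested, summed to 2242 to 2645 CPM in Veh, 485 to 675 with rhWnt3a and 585 to 1177 with rhWnt3aOSMI. Nearly all of this sum was Acta2, at 2234 to 2634, 480 to 670 and 583 to 1175 CPM. By gene, 3 of the 4 tested were called lower with rhWnt3a, and Des was not. Des had 41 to 63 counts in Veh, 46 to 63 with rhWnt3a and 7 to 10 with rhWnt3aOSMI. Chondrocyte markers, of which 4 of 6 were tested, summed to 421 to 561, 93.3 to 120.2 and 79.0 to 128 CPM, and adipocyte markers, of which 2 of 5 were tested, to 42.0 to 50.8, 10.3 to 13.0 and 11.7 to 14.4 CPM. The defining adipocyte markers Adipoq and Cfd were at 0 in Veh. Macrophage markers, of which 3 of 7 were tested, summed to 13.3 to 19.7 CPM in Veh, 7.24 to 11.1 with rhWnt3a and 3.26 to 10.4 with rhWnt3aOSMI, and endothelial and epithelial markers stayed under 3 CPM in every library. The part of these cell states in the results below was not tested.

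The promoters of the receptor and the ligands on which the results turn are shown first, because the same window can then be compared between genes that rose, fell or showed no call. Each is the 250 bases before the start of transcription given by RefSeq on GRCm38.p6, printed 5′ to 3′ on the strand of the gene. Capitals mark the matches to 6 short motifs searched on both strands: the TATA box TATAAA, the TCF/LEF motif ATCAAAG through which Wnt signals are read, the SMAD-binding letters CAGAC, the AP-1 motif TGACTCA, the GC box GGGCGG and the cAMP-response motif TGACGTCA. Tgfbr2 lies at chr9:116175364-116175613 on the minus strand, Tgfb1 at chr7:25686752-25687001 on the plus strand and Tgfb2 at chr1:186705990-186706239 on the minus strand.
Tgfbr2: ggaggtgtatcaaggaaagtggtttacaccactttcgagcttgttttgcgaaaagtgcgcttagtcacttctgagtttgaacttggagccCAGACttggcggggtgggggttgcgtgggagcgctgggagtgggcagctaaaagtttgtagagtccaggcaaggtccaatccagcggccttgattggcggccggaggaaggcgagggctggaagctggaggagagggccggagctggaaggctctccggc
Tgfb1: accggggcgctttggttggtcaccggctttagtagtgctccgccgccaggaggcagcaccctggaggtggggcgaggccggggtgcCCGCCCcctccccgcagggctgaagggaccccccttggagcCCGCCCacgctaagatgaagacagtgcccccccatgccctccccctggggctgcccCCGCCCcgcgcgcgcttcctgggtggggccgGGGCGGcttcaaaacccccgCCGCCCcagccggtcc
Tgfb2: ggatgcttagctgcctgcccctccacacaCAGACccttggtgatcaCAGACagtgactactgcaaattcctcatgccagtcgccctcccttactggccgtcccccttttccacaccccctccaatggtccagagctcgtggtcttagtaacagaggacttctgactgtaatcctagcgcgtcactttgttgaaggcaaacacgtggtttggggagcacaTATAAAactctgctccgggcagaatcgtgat
These windows differed in composition. The Tgfb1 window was 75.2% G or C with 5 GC boxes, the Tgfb2 window was 53.6% G or C with a TATA box whose first base lay 31 bases before the start and 2 CAGAC matches, and the Tgfbr2 window was 58.4% G or C with 1 CAGAC match. RefSeq windows of 300 bases, with 50 bases after the start added, were at hand for 8 of the 10 members, 12 windows in all, and not for Tgfb3 and Tgfbr3. None of the 12 held ATCAAAG, which was found in 3.73% of all 32851 such windows, whereas CAGAC was found in 49.6% of all windows, GGGCGG in 35.7%, TATAAA in 13.6%, TGACTCA in 5.2% and TGACGTCA in 1.79%. A match or its lack in this window describes the letters and not the binding of a factor.

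rhWnt3a against vehicle asks how the Wnt signal alters the genes of a bone progenitor. With rhWnt3a the type II receptor Tgfbr2 rose 5.94-fold and the ligand Tgfb3 rose 2.15-fold, and the other 8 members were not called. A gene was called when its adjusted p, from edgeR's quasi-likelihood test with Benjamini-Hochberg adjustment over the 14004 genes, fell below 0.05 and the fitted change exceeded 0.5 in size on the log2 scale. The 2 called members of 10 stand against 8.78% of all tested genes called, 2.92% higher and 5.86% lower. The groups did not overlap for 3 members, all of them higher with rhWnt3a, against 26.4% of all tested genes without overlap in either direction. The median log2 fold change was 0.26 over the members and 0.04 over all tested genes.

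rhWnt3aOSMI against rhWnt3a asks what the inhibitor changes when the Wnt signal is on. Here Tgfb3 fell and no other member was called, and 4.74% of all tested genes were called, 1.69% higher and 3.05% lower. The groups did not overlap for 4 members, with Tgfb1, Tgfb3 and Tgfbr2 lower and Ltbp1 higher under OSMI, against 33.7% of all tested genes, and the median log2 fold change was −0.42 over the members and −0.01 over all tested genes. rhWnt3aOSMI against vehicle shares its libraries with both of these comparisons. Tgfbr2 was called higher and Tgfb1 lower there, against 14.2% of all tested genes called (4.84% higher, 9.34% lower), and 4 members had no overlap, Tgfb1, Tgfbr1, Tgfbr2 and Ltbp1, against 38.8% of all tested genes.

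**Figure D1:**
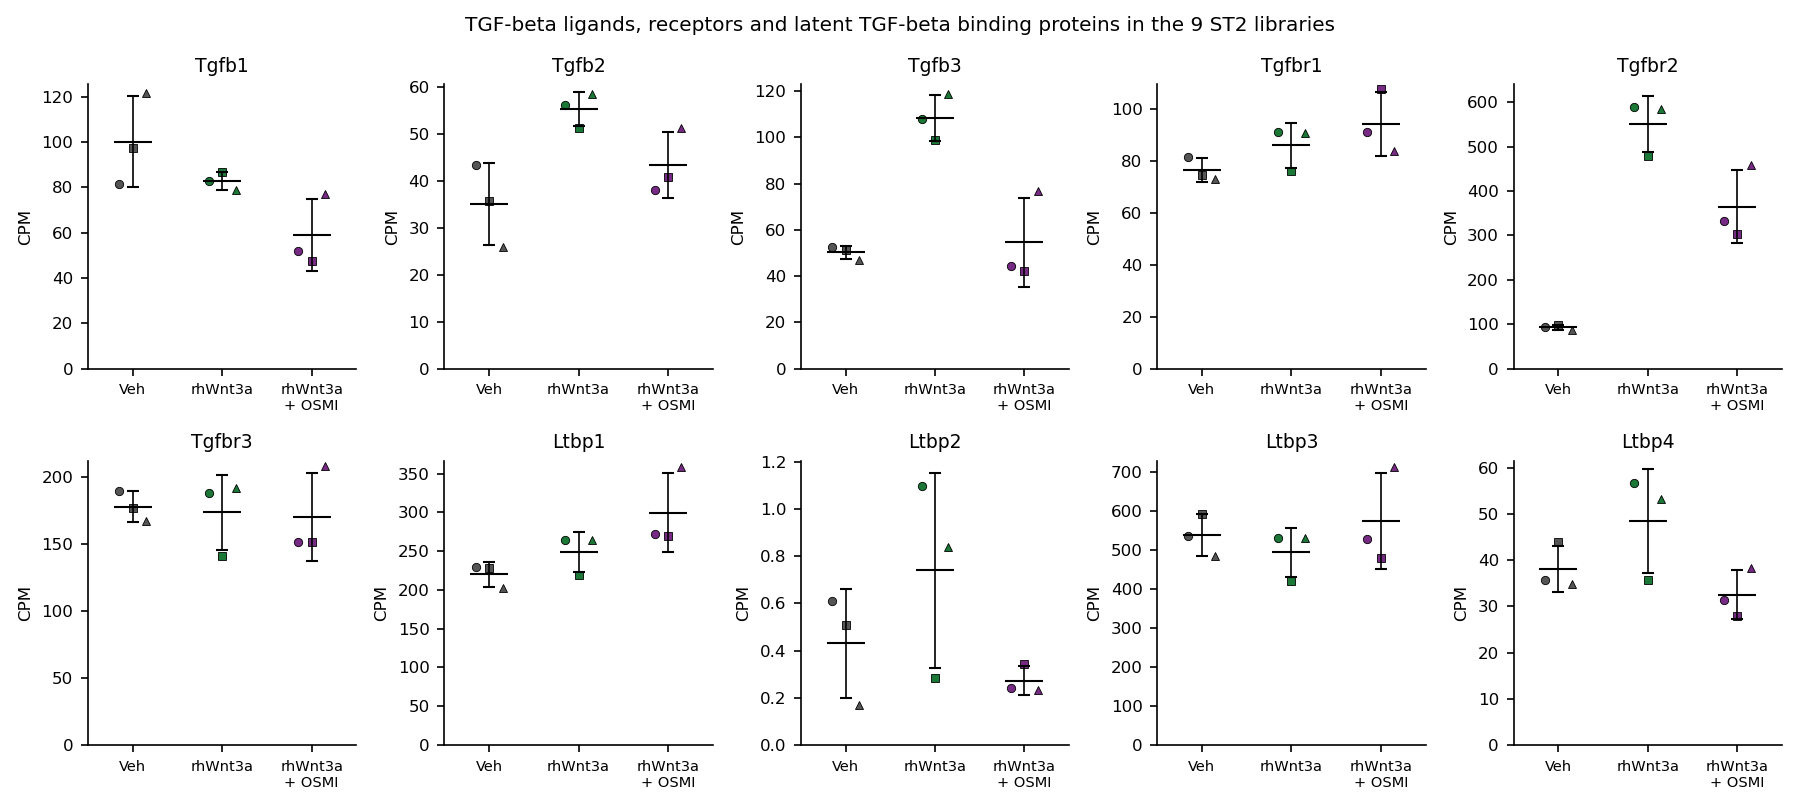
CPM of each of the 10 members, on a linear axis from 0, in Veh, rhWnt3a and rhWnt3a + OSMI. Circles, squares and triangles are replicates 1, 2 and 3, and the bar gives the mean ± SD of 3 libraries. The rhWnt3a libraries of Tgfbr2 lie at 478 to 589 CPM, above all Veh libraries at 86.2 to 97.7 CPM.

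Tgfb1 (chr7:25687002-25705077, plus strand, GRCm38) encodes the ligand that is most abundant in bone matrix. Its level was 81.7, 97.3 and 122 CPM in Veh, 82.8, 86.8 and 78.9 CPM with rhWnt3a, and 52.0, 47.6 and 77.0 CPM with rhWnt3aOSMI. The Veh and rhWnt3a libraries overlapped, and all 3 rhWnt3aOSMI libraries lay below every other library. Against vehicle, Tgfb1 fell by 0.77 on the log2 scale with rhWnt3aOSMI (SE 0.20, adjusted p = 0.0308 in edgeR). This call was lost without Veh replicate 2 (edgeR adjusted p = 0.0941), Veh replicate 3 (0.0842), rhWnt3a replicate 1 (0.0632) or 3 (0.0525), or rhWnt3aOSMI replicate 1 (0.134) or 2 (0.133). Over the 9 fits with 1 library left out, the edgeR adjusted p ran from 0.00502 to 0.134. Over all 23 alternatives, by edgeR or DESeq2, the adjusted p ran from 5.43e-08 to 0.134. These include a fit without the library farthest from its group, which keeps the most alike libraries. Against rhWnt3a alone the log2 fold change was −0.49 (SE 0.20, adjusted p = 0.189), which was called without rhWnt3aOSMI replicate 3 (−0.73, adjusted p = 0.0465). Between rhWnt3a and vehicle it was −0.27 (SE 0.20, adjusted p = 0.550).

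Tgfb2 (chr1:186622792-186705989, minus strand) encodes the ligand that depends most on betaglycan to reach the type II receptor. It measured 43.2, 35.7 and 25.9 CPM in Veh, 56.0, 51.3 and 58.3 CPM with rhWnt3a, and 38.0, 40.7 and 51.3 CPM with rhWnt3aOSMI. The rhWnt3a libraries lay above all Veh libraries, and rhWnt3aOSMI replicate 3 reached the lowest rhWnt3a library. The log2 fold change with rhWnt3a was 0.66 (SE 0.19) and missed the threshold by edgeR's test (adjusted p = 0.0662). It passed without Veh replicate 1 (0.84, adjusted p = 0.04997) or without rhWnt3aOSMI replicate 3 (0.66, adjusted p = 0.0398). It passed in 7 of 23 alternatives in all, by edgeR or DESeq2, with adjusted p from 0.000242 to 0.198. With OSMI added the log2 fold change was −0.35 against rhWnt3a (adjusted p = 0.307) and 0.31 against vehicle (adjusted p = 0.310).

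Tgfb3 (chr12:86056745-86079041, minus strand), the third ligand, measured 52.6, 51.3 and 47.2 CPM in Veh, 108, 98.9 and 119 CPM with rhWnt3a, and 44.5, 42.4 and 76.9 CPM with rhWnt3aOSMI. All rhWnt3a libraries lay above all others, and rhWnt3aOSMI replicate 3 lay between the vehicle and rhWnt3a ranges while replicates 1 and 2 lay below vehicle. The rise with rhWnt3a was 1.11 on the log2 scale (SE 0.22, edgeR adjusted p = 0.00977), and it was called in 23 of 23 alternatives. With OSMI added to rhWnt3a, Tgfb3 fell by 0.99 (SE 0.21, adjusted p = 0.0311). That call was lost in 7 of the 9 fits with 1 library left out, those without Veh replicate 1 (adjusted p = 0.0657) or 2 (0.0677), rhWnt3a replicate 1 (0.0916), 2 (0.0756) or 3 (0.110), or rhWnt3aOSMI replicate 1 (0.134) or 2 (0.126), with log2 fold changes from −1.39 to −0.80 over 23 alternatives. Against vehicle, Tgfb3 with rhWnt3aOSMI had a log2 fold change of 0.12 (adjusted p = 0.742), which turned to −0.21 without rhWnt3aOSMI replicate 3 (adjusted p = 0.329).

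The make-up of the ligand transcripts was compared per length, in FPKM (fragments per kilobase of transcript, scaled to library size). The summed ligand level was 40.2 ± 1.20 FPKM in Veh, 56.8 ± 2.27 with rhWnt3a and 34.9 ± 10.6 with rhWnt3aOSMI (SD, n = 3). With the gene lengths in the table, Tgfb1 held the largest share in Veh, 48.5% ± 7.73, and Tgfb3 the largest with rhWnt3a, 55.2% ± 2.43, and with rhWnt3aOSMI, 45.2% ± 2.90 (SD, n = 3). The ratio of Tgfb3 to Tgfb1 spanned 0.578 to 0.959 in Veh, 1.70 to 2.24 in rhWnt3a and 1.28 to 1.49 in rhWnt3aOSMI libraries. The 3 groups did not overlap in this ratio, in which rhWnt3aOSMI lay between the other two, and with 3 libraries against 3 an exact two-sided permutation test cannot go below p = 0.1. The order of the shares depends on the length taken for each gene. With the 2573 bases of the longest Tgfb1 transcript in place of the 5042 in the table, and likewise for the other ligands, Tgfb1 held 63.8%, 43.0% and 48.2% and Tgfb3 held 24.7%, 42.7% and 33.5% in Veh, rhWnt3a and rhWnt3aOSMI. The ratio of Tgfb3 to Tgfb1 was then 0.395, 1.001 and 0.696, with the same order of the groups and no overlap, since a length scales every library alike. With the lengths in the table, Tgfb2 held 14.9% ± 4.27, 16.4% ± 0.361 and 21.7% ± 2.68 of the ligand FPKM in the same order.

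Tgfbr2 (chr9:116084293-116175360, minus strand), the type II receptor that binds the ligand, showed the largest change of the members. Its level was 94.4, 97.7 and 86.2 CPM in Veh, 589, 478 and 586 CPM with rhWnt3a, and 333, 303 and 458 CPM with rhWnt3aOSMI. The 3 groups did not overlap, with Veh lowest and rhWnt3a highest. The rise with rhWnt3a was 2.57 on the log2 scale (SE 0.19, edgeR adjusted p = 4.24e-05), the 29th smallest p of the 14004 genes and the 9th among genes with a positive log2 fold change. Against vehicle, the rise with rhWnt3aOSMI was 1.98 (SE 0.18, adjusted p = 0.000133), or 3.93-fold. Both rises were called in 23 of 23 alternatives. Between rhWnt3aOSMI and rhWnt3a the log2 fold change was −0.60 (SE 0.18) and missed the threshold (adjusted p = 0.0865). It was called without rhWnt3aOSMI replicate 3 (−0.79, adjusted p = 0.0161) and in 6 further alternatives of 23, DESeq2 on all libraries among them, with adjusted p from 4.94e-09 to 0.249. Another of the 6 was the fit without the library farthest from its group, which keeps the most alike libraries.

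Tgfbr1 (chr4:47353222-47414931, plus strand), the type I receptor kinase, ran from 73.2 to 81.8 CPM in Veh, 76.0 to 91.1 with rhWnt3a and 83.7 to 108 with rhWnt3aOSMI. Its log2 fold changes were 0.17 (SE 0.14, adjusted p = 0.605) for rhWnt3a and 0.30 (adjusted p = 0.172) for rhWnt3aOSMI against vehicle, although the last groups did not overlap. Tgfbr3 (chr5:107106570-107289629, minus strand), which encodes betaglycan, a coreceptor that presents ligand, ran from 167 to 189.6 CPM in Veh, 141 to 192 with rhWnt3a and 151 to 208 with rhWnt3aOSMI, and its fitted log2 fold changes lay between −0.06 and −0.03. Tgfbr2 was thus the only receptor called, and its level relative to the others changed with it. The ratio of Tgfbr2 to Tgfbr1 in FPKM was 0.968 ± 0.065 in Veh, 5.11 ± 0.072 with rhWnt3a and 3.18 ± 1.08 with rhWnt3aOSMI, and that of Tgfbr2 to Tgfbr3 was 0.417 ± 0.022, 2.55 ± 0.138 and 1.71 ± 0.093 (SD, n = 3). Neither ratio had overlapping groups. The size of each ratio depends on the lengths taken. With the longest transcripts the first was 0.862, 4.55 and 2.83 and the second 0.393, 2.40 and 1.61, with the same order of the groups.

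**Figure D2:**
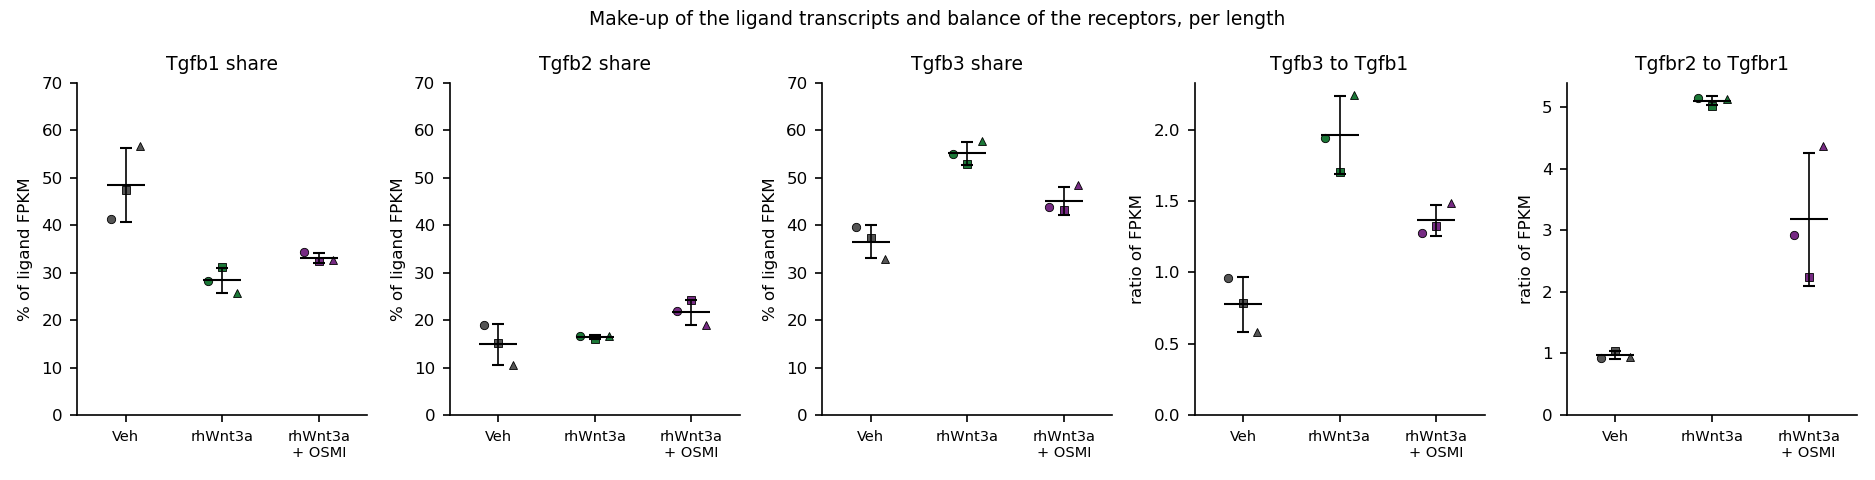
Share of each ligand in the summed ligand FPKM (%), and ratios of FPKM between Tgfb3 and Tgfb1 and between Tgfbr2 and Tgfbr1, per library. Circles, squares and triangles are replicates 1, 2 and 3, bars give the mean ± SD of 3 libraries, and axes start at 0. With the gene lengths in the table, the ratio of Tgfbr2 to Tgfbr1 was 0.968 in Veh and 5.11 with rhWnt3a. With the longest transcripts it was 0.862 and 4.55.

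The latent TGF-beta binding proteins, which anchor the latent ligand in the matrix, gave no call by edgeR's test as reported in any of the 3 comparisons. Under other settings, Ltbp4 was called in 5 of 23 alternatives and Ltbp2 in 2 of 21, both with OSMI added, and Ltbp1 in 1 of 23 under rhWnt3aOSMI against vehicle. Ltbp3 (chr19:5740904-5758532, plus strand), a binding protein needed for normal skeletal growth, was the member with the highest level per length in each group, at 102 ± 10.9 FPKM in Veh, 93.0 ± 11.1 with rhWnt3a and 109 ± 25.7 with rhWnt3aOSMI (SD, n = 3). These values rest on the 5190 bases that the table gives for the gene. With the 9069 exonic bases of GENCODE M21 the rhWnt3a level became 53.2 FPKM, below the 65.9 of Tgfbr2. Its level was 484 to 592 CPM in Veh, 420 to 529.9 with rhWnt3a and 478 to 712 with rhWnt3aOSMI, with overlap in every comparison.

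Ltbp1 (chr17:75005568-75392512, plus strand), the binding protein first described with latent TGF-beta, was next in this family. It measured 229, 228 and 202 CPM in Veh, 264, 219 and 264 with rhWnt3a and 272, 269 and 358 with rhWnt3aOSMI. All rhWnt3aOSMI libraries lay above every other library. The log2 fold change against vehicle was 0.45 (adjusted p = 0.0834), and against rhWnt3a it was 0.27 (adjusted p = 0.331). Ltbp4 (chr7:27305136-27337692, minus strand), which also helps to assemble elastic fibres, measured 35.6, 43.8 and 34.8 CPM in Veh, 56.6, 35.7 and 53.3 with rhWnt3a and 31.3, 28.0 and 38.3 with rhWnt3aOSMI. Replicate 2 of rhWnt3a lay within the vehicle range, and the log2 fold change with OSMI added was −0.58 (SE 0.20, adjusted p = 0.128). Ltbp2 (chr12:84783212-84876532, minus strand), a fibrillin-binding member that does not bind latent TGF-beta, had only 3 to 18 counts in any library, and its fitted log2 fold changes of 0.78, −1.40 and −0.62 had standard errors of 0.58 to 0.65. None was called (adjusted p = 0.210 to 0.555), and changes of this size could not be resolved at this depth.

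**Figure D3:**
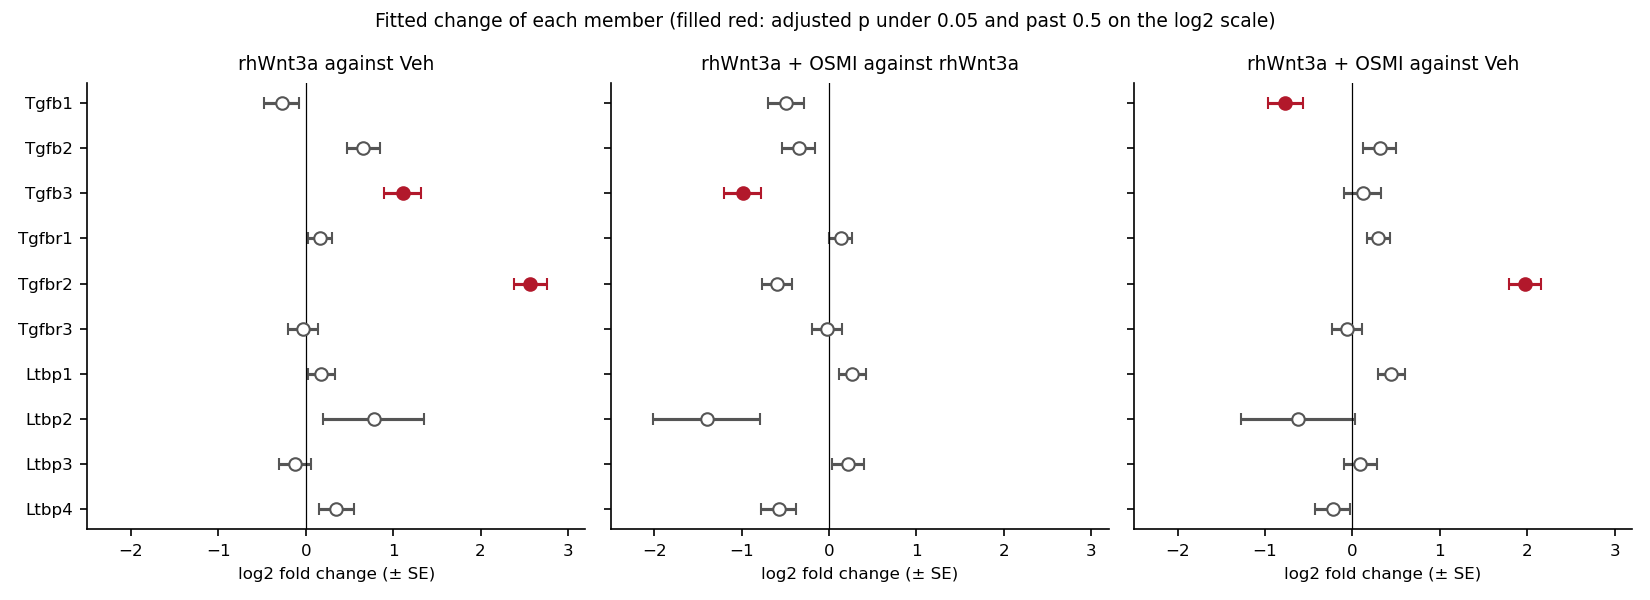
Fitted log2 fold change (horizontal axis) with its standard error for the 10 members in the 3 comparisons, from edgeR on all 9 libraries. Filled red points are called genes (edgeR adjusted p below 0.05, change past 0.5 in size). Tgfbr2 stands at 2.57 with rhWnt3a, and Tgfb3 is called in both the first and the second comparison.

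The genes whose log2 CPM followed Tgfbr2 most closely over the 9 libraries, among 11574 genes with an average log2 CPM above 1, were Esr1 (Pearson r = 0.996), the estrogen receptor, Rab30 (0.994), a small GTPase of the Golgi, and Pitpnc1 (0.990), a phosphatidylinositol transfer protein. For Tgfb3 they were Pmepa1 (0.989), a TGF-beta-induced gene that holds back SMAD signalling, Sec24d (0.977), a coat protein of vesicles leaving the endoplasmic reticulum, and Rin2 (0.974), an exchange factor for Rab5. These correlations are descriptions over libraries that share 3 treatments. Among the members themselves the largest was that of Tgfb2 with Tgfb3 (r = 0.818), and the most negative was that of Tgfb1 with Tgfbr1 (r = −0.863).

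The other genes of the pathway were grouped into 6 lists, some of which share genes. Pmepa1, Skil and Smad7 stand both among the SMAD brakes and among the responsive genes. Fn1 stands both in the activation and storage list and among the responsive genes. The shares called are therefore not independent between these lists. Their shares called stand beside 8.78% of all tested genes with rhWnt3a, 4.74% with OSMI added and 14.2% under rhWnt3aOSMI against vehicle. In each comparison lower calls outnumbered higher ones over all tested genes. In the list of genes that activate or store latent TGF-beta, 21 of 26 were tested. With rhWnt3a 2 were called higher and 4 lower (28.6% called, median log2 fold change −0.25). Thbs1, a thrombospondin that can release the growth factor, fell by 1.51 on the log2 scale, from 437 to 695 CPM in Veh to 177 to 232 CPM, and Mmp2, a gelatinase, fell by 1.18. Plau and Plat, the plasminogen activators, rose by 1.09 and 0.84. With OSMI added 1 was called higher and 3 lower (19%): Thbs1 rose by 1.24 to 450 to 596 CPM, while Plau fell by 1.95, Plat fell by 1.73 and Mmp2 fell by 1.18. Against vehicle, 7 were lower under rhWnt3aOSMI and none higher (33.3%), among them Mmp2 (−2.35), Fbn2, a fibrillin (−2.25), Adamts10, a protease of the microfibrils (−1.28), and Efemp2, a fibulin (−0.996). The first count was 3 without Veh replicate 2, rhWnt3a replicate 1 or rhWnt3a replicate 3. The second was 2 without rhWnt3a replicate 3, and the third was 4 without Veh replicate 1, rhWnt3aOSMI replicate 1 or rhWnt3aOSMI replicate 2. Without the library farthest from its group the 3 counts were 8, 11 and 11. With length and GC offsets they were 7, 9 and 7. By gene, the rise of Plat was lost without Veh replicate 1 or 2 or any of the 3 rhWnt3a libraries (adjusted p = 0.0518 to 0.0828). The later rise of Thbs1 was lost without rhWnt3a replicate 3 (0.0522), the fall of Mmp2 with OSMI added without rhWnt3a replicate 1 or 3 or rhWnt3aOSMI replicate 1 or 2 (0.0505 to 0.0798), and the fall of Fbn2 without Veh replicate 1 or 2 or rhWnt3aOSMI replicate 1 or 2 (0.0600 to 0.0975).

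Of 11 coreceptors and other type I or II receptors 8 were tested. Cd109, a membrane protein that binds TGF-beta and dampens its signal, was the only gene of this list called with rhWnt3a, and it fell by 1.82, from 36.5 to 47.6 CPM in Veh to 10.2 to 12.53 CPM. It stood at 7.14 to 8.57 CPM under rhWnt3aOSMI, where it was lower than vehicle by a log2 fold change of −2.36. Nrp1, a neuropilin that binds TGF-beta, rose by 0.67 against vehicle under rhWnt3aOSMI, a call lost without any of Veh replicates 1 to 3, rhWnt3a replicate 3 or rhWnt3aOSMI replicates 1 to 3 (adjusted p = 0.0599 to 0.103). With OSMI added to rhWnt3a none of the 8 was called by edgeR's test, beside 2 at an unadjusted p under 0.05 past the same fold threshold and 1 by DESeq2 on all libraries. Without Veh replicate 3 the list had 2 calls with rhWnt3a and 1 with OSMI added, and without rhWnt3a replicate 2 it had 4 under rhWnt3aOSMI against vehicle.

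In the list of SMAD transducers and their brakes 17 of 18 were tested, and the transducers Smad2, Smad3 and Smad4 were not called in any comparison. Smad3 missed the edgeR threshold at −0.55 with rhWnt3a (adjusted p = 0.0713) and at 0.58 with OSMI added (adjusted p = 0.0755). Smad2 and Smad4 stood at −0.33 and −0.08, then at 0.22 and 0.34. For all 3 the groups did not overlap in these 2 comparisons, against 26.4% and 33.7% of all tested genes. Pmepa1 was the only call with rhWnt3a (5.88% of the list, and 2 calls without rhWnt3a replicate 2 or rhWnt3aOSMI replicate 3). It measured 78.2, 74.5 and 69.95 CPM in Veh, 216, 220.4 and 207 with rhWnt3a, and 62.2, 64.4 and 131 with rhWnt3aOSMI. It rose by 1.53 with rhWnt3a (edgeR adjusted p = 0.00459) and fell by 1.32 with OSMI added (adjusted p = 0.0208), with replicate 3 of rhWnt3aOSMI between the other groups as for Tgfb3. Skil, a repressor of SMAD targets, also fell with OSMI added (−0.60), and the ubiquitin ligases Smurf1 and Nedd4l rose by 0.80 and 0.67 (23.5% of the list). These 4 calls were 2 without Veh replicate 1 or Veh replicate 2, 1 without rhWnt3a replicate 1, and 0 without rhWnt3a replicate 2 or 3 or rhWnt3aOSMI replicate 1 or 2, with the adjusted p of Pmepa1 at 0.0652 to 0.0954 in the fits that lost it. Smurf1 was lost without rhWnt3aOSMI replicate 3 as well (adjusted p = 0.0873). Against vehicle, Smurf2 was the only call under rhWnt3aOSMI (0.58), lost without Veh replicate 1, Veh replicate 2, Veh replicate 3, rhWnt3a replicate 3, rhWnt3aOSMI replicate 2 or rhWnt3aOSMI replicate 3.

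Of 30 genes known to respond to TGF-beta 28 were tested: 9 were called lower and 3 higher with rhWnt3a (42.9%), 8 lower and 2 higher with OSMI added (35.7%), and 14 lower and 2 higher under rhWnt3aOSMI against vehicle (57.1%). Over all tested genes 8.78%, 4.74% and 14.2% were called, and there too lower calls outnumbered higher ones, 821 to 409, 427 to 237 and 1308 to 678. The median log2 fold changes of the list were −0.34, −0.42 and −0.76, beside 0.04, −0.01 and −0.01 over all tested genes. Genes of the contractile apparatus were called lower with rhWnt3a: Acta2 fell by 2.18, Tagln fell by 1.95, and Cnn1 went from 3.18 to 4.14 CPM in Veh to 0.120 to 0.284 CPM, at or near the level of 3 counts. Tagln lost its call without rhWnt3a replicate 1 or 3 (adjusted p = 0.0554 to 0.0621). These 3 genes are also smooth muscle markers of the list above. Timp3, an inhibitor of matrix proteases, rose by 2.13 with rhWnt3a, from 1203 to 1907 CPM in Veh to 4873 to 8574 CPM, and by 2.64 under rhWnt3aOSMI. Tagln and Pmepa1 are both known TGF-beta targets, and with rhWnt3a Tagln fell while Pmepa1 rose.

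Among the genes of this list called lower with OSMI added, Col3a1, a fibrillar collagen, fell by 1.99 against rhWnt3a, from 2145 to 2219 CPM to 317 to 965 CPM, and Postn, periostin, fell by 1.72, from 2735 to 2982 CPM to 599 to 1331 CPM. In both, rhWnt3aOSMI replicate 3 held the highest level of its group. The call of Postn was lost without rhWnt3aOSMI replicate 1 or 2 (adjusted p = 0.0548 to 0.0667), and that of Col3a1 was also lost without any of the rhWnt3a libraries (adjusted p = 0.0526 to 0.0799). Tgfbi, a TGF-beta-induced matrix protein, had 0.828 to 2.08 CPM in Veh, 0.398 to 0.426 with rhWnt3a and at most 0.058 under rhWnt3aOSMI, under the limit of 3 counts, and its fold is not given. Its call with OSMI added was lost without any rhWnt3a library or rhWnt3aOSMI replicate 1 or 2 (adjusted p = 0.0847 to 0.113). The count of responsive genes called with OSMI added was 3 in place of 10 without rhWnt3a replicate 1, 2 or 3 and 2 without rhWnt3aOSMI replicate 1 or 2. It reached up to 14 with 1 library left out. The count against vehicle was 10 in place of 16 without Veh replicate 2. Without the library farthest from its group the counts in the 3 comparisons were 18, 15 and 19. With length and GC offsets they were 13, 16 and 17.

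Extracellular proteins that bind TGF-beta or related ligands were all 15 tested. With rhWnt3a 4 were called higher and 3 lower (46.7%), and with OSMI added 10 were lower and none higher (66.7%, median log2 fold change −0.95). Dcn, decorin, a proteoglycan that sequesters TGF-beta, measured 11.4, 7.96 and 11.5 CPM in Veh, 40.5, 48.4 and 42.8 with rhWnt3a and 1.27, 1.55 and 1.34 with rhWnt3aOSMI. It rose by 2.09 with rhWnt3a (adjusted p = 8.68e-05) and fell by 4.98 with OSMI added (adjusted p = 5.93e-06), both called in 23 of 23 alternatives. Nrep, a neuronal regeneration protein linked to TGF-beta expression, followed the same course, rising by 2.30 and falling by 3.34. Bgn, biglycan, fell at both steps, by 1.09 and 0.95, and Fst, follistatin, an activin antagonist, fell by 1.73 with rhWnt3a and showed no call with OSMI added (log2 fold change 0.14). Aspn, asporin, which also binds TGF-beta, went from 4.13 to 10.99 CPM in Veh to 0.973 to 1.19 with rhWnt3a and 0.058 to 0.181 under rhWnt3aOSMI, and Lum, lumican, had at most 1.59 CPM in any library and 0.230 or less under rhWnt3aOSMI. With OSMI added, Aspn lost its call without any rhWnt3a or rhWnt3aOSMI library (adjusted p = 0.0548 to 0.0760), and Lum lost its call in 7 of the 9 fits without 1 library, those without rhWnt3aOSMI replicate 2 and Veh replicate 3 excepted (adjusted p = 0.0606 to 0.110). Against vehicle, 8 were lower under rhWnt3aOSMI and none higher (53.3%), including Dcn (−2.88), Fmod, fibromodulin (−2.72), and Bgn (−2.04). The 10 calls with OSMI added were 6 without Veh replicate 1, Veh replicate 2 or rhWnt3a replicate 2, 5 without rhWnt3aOSMI replicate 2, and 4 without rhWnt3a replicate 1, rhWnt3a replicate 3 or rhWnt3aOSMI replicate 1. They were 13 without the library farthest from its group and 9 with length and GC offsets.

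**Figure D4:**
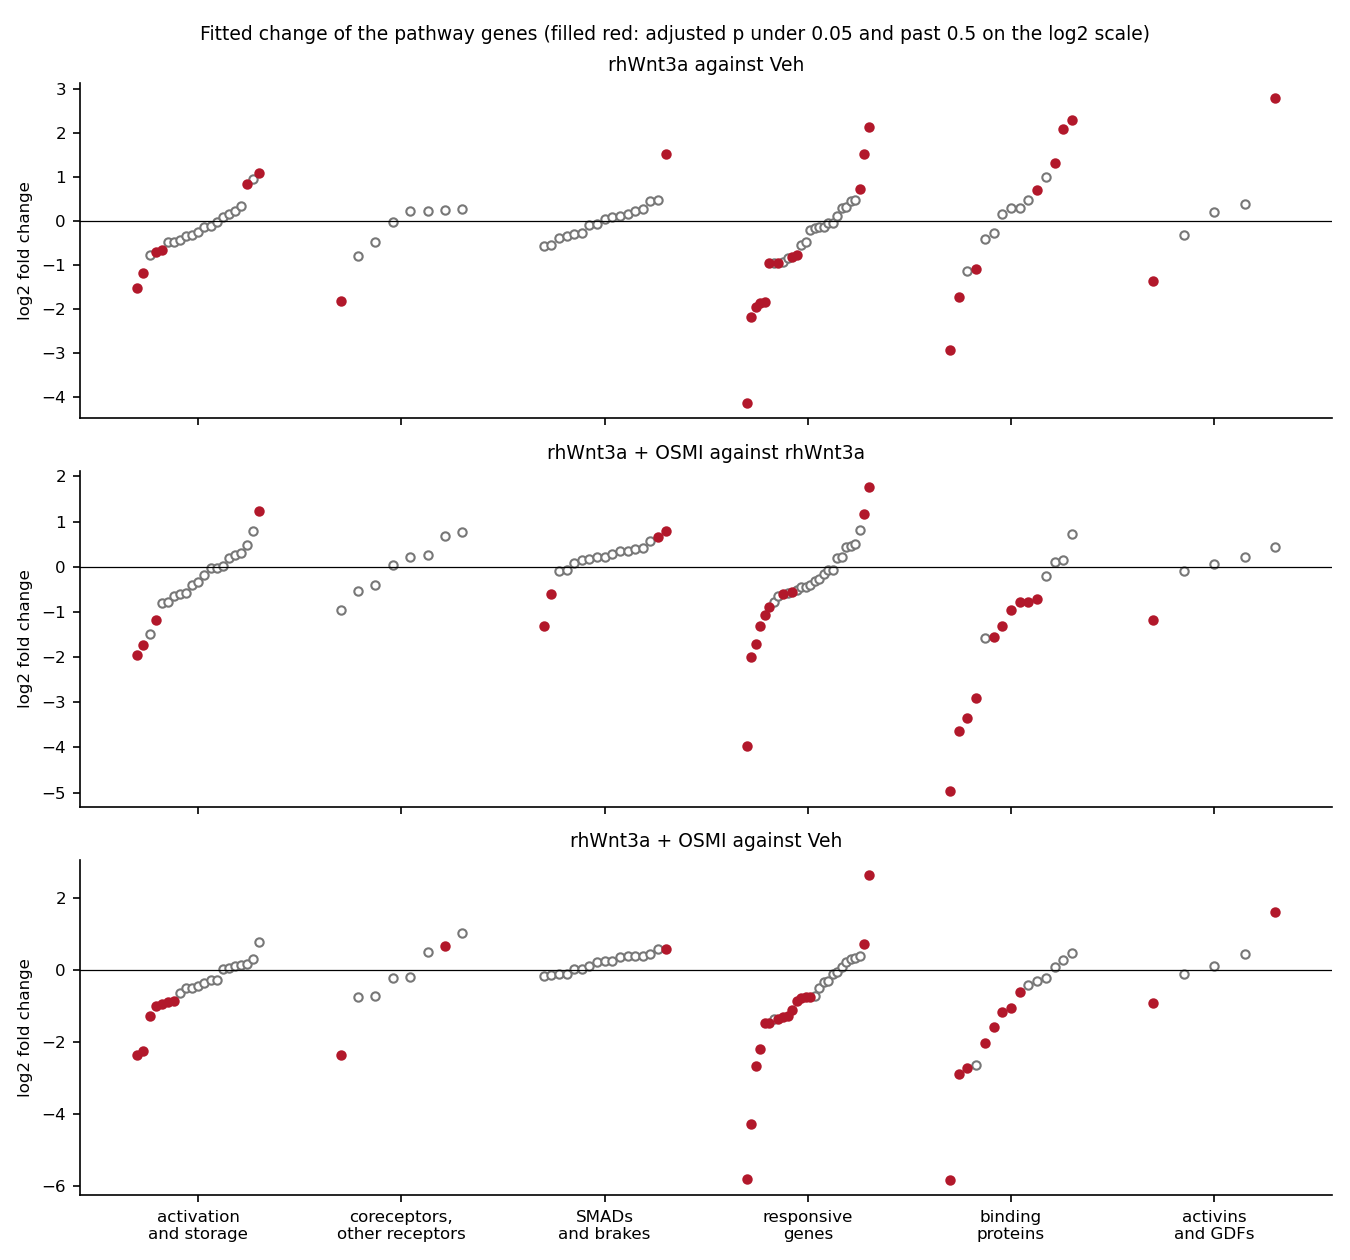
Fitted log2 fold change of each tested gene of the 6 lists (vertical axis), ordered by size within its list, with 1 panel per comparison. Filled red points are called genes (edgeR adjusted p below 0.05, change past 0.5 in size). With OSMI added, 10 of the 15 binding proteins were called and all 10 were lower. Over all tested genes 4.74% were called in that comparison, 3.05% lower and 1.69% higher. Genes near 0 counts in a group (Tgfbi, Cnn1, Aspn and Lum) have fitted values that depend on the prior count.

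Of 10 activin and GDF ligands, relatives of TGF-beta, 5 were tested. Inhbb, which encodes a subunit of activin B, measured 3.67, 2.04 and 3.62 CPM in Veh, 22.0, 21.04 and 21.7 with rhWnt3a and 10.04, 7.52 and 11.1 with rhWnt3aOSMI. The 3 groups did not overlap, in the same order as those of Tgfbr2. Inhbb rose by 2.79 with rhWnt3a (edgeR adjusted p = 0.000106) and was higher than vehicle under rhWnt3aOSMI by 1.61 (adjusted p = 0.00172), both called in 23 of 23 alternatives. With OSMI added it fell by 1.18 (adjusted p = 0.0177), a call lost without rhWnt3a replicate 1, 2 or 3 or rhWnt3aOSMI replicate 1 or 2 (adjusted p = 0.0544 to 0.0835). Gdf15, a stress-induced relative, fell by 1.35 with rhWnt3a, lost without rhWnt3a replicate 1 (adjusted p = 0.0690) or 3 (adjusted p = 0.0559), and by 0.92 under rhWnt3aOSMI against vehicle, a call lost when any of 7 libraries was left out (Veh replicates 1 to 3, rhWnt3a replicate 1 and rhWnt3aOSMI replicates 1 to 3) (adjusted p = 0.0555 to 0.125 over the 7).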

How the data were processed

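Poly-A mRNA libraries of ST2 cells were sequenced and, per the labels and the submitters' processing notes, handled by the authors with CASAVA and fastp, HISAT2 2.0.5 and featureCounts 1.5.0-p3 on mm10. The annotation release and the strand setting are not given in the sources used here. The deposited table holds raw read counts per gene and FPKM, which the authors computed from the gene lengths in the table, a deposited column (unit other). Its 15 columns of the authors' own comparisons (fold changes and p-values) were not used.

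The members and gene lists were chosen with earlier results of these data known. Counts of all 54532 genes were filtered with filterByExpr of edgeR 4.0.16 (minimum count 10, minimum total 15), scaled by TMM and fitted on all 9 libraries with glmQLFit and glmQLFTest, without covariates, in R 4.3.3. P-values were adjusted by Benjamini-Hochberg over 14004 genes. A call needed adjusted p < 0.05 together with a change past 0.5 in size on the log2 scale. Of these only the fold threshold follows the study's methods, which name DESeq2 and a p-value threshold and are matched most closely by one of the alternatives. CPM use TMM-scaled library sizes, and means carry the SD of 3 libraries. The limit of 3 counts covers counting error only. The lists name up to 4 called genes with the largest change per comparison. Other named genes (Smad2, Smad3 and Smad4, and the markers Cxcl12 and Vcam1) were chosen after their values were seen. Gene positions are those of the table on GRCm38, with the same coordinates in GENCODE M21. Promoters came from RefSeq. The test was checked on simulated counts. Replicate numbers did not pair libraries. DESeq2 1.42.0, other scalings, filters, thresholds, offsets for length and GC content, and fits without libraries were alternatives, including fits without the library farthest from its group. The lists under each alternative, the longest-transcript lengths and the differences within sides of the first axis were added after seeing the data. Some items are not reported here.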

Additional observations from a re-analysis of the deposited data

How the results depend on the processing

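Direction and call held in 23 of 23 alternatives for the rises of Tgfbr2 in both comparisons with vehicle and of Tgfb3 with rhWnt3a. The fall of Tgfb3 with OSMI added was called in 13 of 23 and that of Tgfb1 against vehicle in 15 of 23. Counts of called genes are given in the order rhWnt3a against vehicle, rhWnt3aOSMI against rhWnt3a and rhWnt3aOSMI against vehicle, beside 1230, 664 and 1986 as reported. They were 2155, 2271 and 3186 at an unadjusted p, 796, 380 and 1118 at a log2 threshold of 1, and 2557, 1789 and 3351 without the library farthest from its group, a setting that keeps the most alike libraries by its own construction. They were 2431, 2460 and 3459 by DESeq2 on 6 libraries at an unadjusted p. The second count alone was 1481 without a count filter, 1044 with length and GC offsets, 345 on the 6 libraries compared and 1289 by DESeq2 on all 9. Adding the replicate block gave counts of 809, 233 and 1297. Samples of the same number did not deviate together (correlations from −0.49 to 0.44), so the numbers were not taken as pairs. Called members with OSMI added, 1 as reported, were 4 at an unadjusted p, 0 at a log2 threshold of 1, 0 with the replicate block, 3 with length and GC offsets with or without the block, 0 on 6 libraries, 6 without the farthest libraries (Tgfb1, Tgfb2, Tgfb3, Tgfbr2, Ltbp2 and Ltbp4), 2 by DESeq2 on 9 libraries and 3 by DESeq2 on 6. Against vehicle, 2 called members became 1 at a log2 threshold of 1 and on 6 libraries and 3 with library totals, which added Ltbp1. Leaving out 1 library at a time gave 716 to 1506, 203 to 764 and 1218 to 2328 called genes, and 0 to 3 called members with OSMI added and 1 to 2 against vehicle. The cause of these shifts was not tested.

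With library totals in place of TMM the higher and lower calls were 329 and 353 with OSMI added, beside 237 and 427, and 957 and 1179 against vehicle, beside 678 and 1308. The values that reversed were of members not called as reported. Tgfbr3 turned positive with OSMI added under library totals (0.027) and a filter of 10 counts in every library (0.00080), and with rhWnt3a without the farthest libraries (0.015). Leaving out 1 library gave it values from −0.111 to 0.0946, −0.196 to 0.0877 and −0.230 to 0.0540 in the 3 comparisons. Without the farthest libraries Ltbp3 was −0.078 with OSMI added and −0.20 against vehicle (adjusted p = 0.0227), Tgfb2 −0.044 and Tgfb3 −0.30 against vehicle (adjusted p = 0.00405). Against vehicle, leaving out 1 library gave Tgfb3 values from −0.209 to 0.311 and Ltbp3 values from −0.0919 to 0.245, the lowest of both without rhWnt3aOSMI replicate 3.

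The first axis of deviations from the group means held 54.8% of that variance and put Veh replicate 3, rhWnt3a replicate 2 and rhWnt3aOSMI replicates 1 and 2 on the same side. Within the 2 sides, without a test, the log2 difference of Tgfbr2 was 2.47 and 2.61 with rhWnt3a and −0.59 and −0.36 with OSMI added. That of Tgfb3 was 1.07 and 1.12 and then −1.18 and −0.56, and that of Tgfb1 under rhWnt3aOSMI against vehicle was −1.29 and −0.21. With rhWnt3a the sides compared 1 library with 1 and 2 with 2. In both comparisons of rhWnt3aOSMI they compared 2 libraries with 1 and 1 with 2, so some groups are a single library. Depth limits Ltbp2, Tgfbi, Lum and Cnn1, and 128 of 1138 values of named list genes lost their call under an alternative, with none reversed.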
